A study of Homo sapiens with 16 samples.

Results

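HOXA3, HOXA5, HOXA6, HOXA7, HOXA9, HOXA10, MEIS1, PBX3 and MEF2C are 9 of the 27311 genes listed for each of 16 RNA-seq libraries. They were chosen by name, as genes known from leukaemia; the rule uses no measured value, but it was written with earlier results of these data known. RNA was measured in 4 established human cell lines, each untreated and after 4 h with a stimulus for its lineage, with 2 libraries in each of the 8 groups. All 9 members were listed in the files, and 8 of them passed the filter on low values (at least 1 TPM in at least 2 libraries). HOXA3 did not pass and is given by its values.

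THP-1 and U937 are labelled as monocytic lines, Jurkat as a T cell line and BJAB as a B cell line. Both THP-1 groups carried dCas9-KRAB, a nuclease-dead Cas9 joined to a repressor domain, and the other lines were labelled WT. THP-1 cells received bacterial lipopolysaccharide (LPS) at 1 µg/ml and U937 cells LPS at 200 ng/ml. For Jurkat the stimulus was anti-CD3 (5 µg/ml) and PMA (100 ng/ml), a phorbol ester, which act on T cell receptor signalling. BJAB cells received anti-IgM at 10 µg/ml with anti-CD40 at 4 µg/ml, which act on the B cell receptor and the CD40 receptor. Each class therefore held 2 lines, and a class comparison cannot tell the lineage apart from the individual lines, nor THP-1 from its dCas9-KRAB transgene.

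HOXA genes encode homeodomain transcription factors that lie side by side on chromosome 7 and pattern the body axis in the embryo. In blood, HOXA5 to HOXA10 are active in stem and progenitor cells and are normally switched off as cells mature. HOXA9 binds DNA together with the homeodomain cofactors MEIS1 and PBX3, and acute leukaemias with KMT2A or MLLT10 fusions are known for high HOXA9 and MEIS1. THP-1 is known to carry a KMT2A-MLLT3 fusion and U937 a PICALM-MLLT10 fusion. MEF2C, a MADS-box factor, is known as a gene of KMT2A-rearranged leukaemia and also as a factor of normal B cell and myeloid development.

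Levels are TPM as deposited, a share of all transcripts in a library that is scaled for gene length. The steps of the TPM values gave the reads behind them, which totalled 3317689 to 8432224 per library. Nothing in the labels says that the libraries of a group came from separate cultures, so p-values measure the spread between libraries, which may be technical. In bulk RNA, fewer cells with a transcript and less of it per cell cannot be told apart. The first LPS library of U937 and the first stimulated library of BJAB stood apart from their partners, with a Pearson r over genes of 0.943 and 0.939 against 0.984 to 0.991 in the other 6 groups. Of 20 monocytic markers 18 reached 1 TPM in untreated THP-1 and 17 in untreated U937, all 18 T cell markers did in Jurkat, and all 18 B cell markers did in BJAB. Some also reached 1 TPM in untreated lines of another label: 5 monocytic markers in Jurkat and 7 in BJAB, 7 B cell markers in each of THP-1, U937 and Jurkat, and 6 T cell markers in BJAB and 2 in each monocytic line. The summed B cell markers lay between 189.6 and 494 TPM in those lines, against 8987 and 9505 TPM in BJAB.

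The stretches around the start sites of 4 members are shown because these genes followed 4 different patterns across the lines: HOXA7 was highest in Jurkat, its neighbour HOXA9 was read in the monocytic lines, MEIS1 was highest in U937 and PBX3 in THP-1. The sequences are from RefSeq on GRCh38.p14, 5′ to 3′ on the gene's own strand, from 250 bases before to 50 bases after the start. Capitals mark a match to one of 4 motifs, searched on both strands: the MEIS core TGACAG, the PBX-HOX composite TGATNNAT, the homeodomain core TAATTA and the TATA box TATAAA. HOXA7 is at chr7:27156626-27156925 (minus strand), HOXA9 at chr7:27165488-27165787 (minus strand), MEIS1 at chr2:66434875-66435174 (plus strand) and PBX3 at chr9:125747933-125748232 (plus strand).
HOXA7: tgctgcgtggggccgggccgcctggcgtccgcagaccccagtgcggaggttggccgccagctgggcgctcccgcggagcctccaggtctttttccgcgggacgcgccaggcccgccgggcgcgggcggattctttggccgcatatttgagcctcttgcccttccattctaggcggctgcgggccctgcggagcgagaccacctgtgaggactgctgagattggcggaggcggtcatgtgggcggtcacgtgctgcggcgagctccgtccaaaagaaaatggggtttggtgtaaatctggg
HOXA9: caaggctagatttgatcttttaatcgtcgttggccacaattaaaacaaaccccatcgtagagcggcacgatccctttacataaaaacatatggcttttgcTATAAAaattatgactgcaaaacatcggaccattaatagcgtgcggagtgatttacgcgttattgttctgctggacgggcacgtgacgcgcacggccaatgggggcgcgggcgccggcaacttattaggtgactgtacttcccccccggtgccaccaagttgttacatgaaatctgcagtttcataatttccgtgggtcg
MEIS1: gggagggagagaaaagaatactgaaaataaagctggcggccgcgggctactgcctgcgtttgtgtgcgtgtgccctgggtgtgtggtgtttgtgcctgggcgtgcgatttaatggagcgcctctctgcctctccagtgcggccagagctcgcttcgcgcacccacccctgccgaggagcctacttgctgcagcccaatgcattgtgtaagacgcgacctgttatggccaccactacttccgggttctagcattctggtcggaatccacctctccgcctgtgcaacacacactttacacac
PBX3: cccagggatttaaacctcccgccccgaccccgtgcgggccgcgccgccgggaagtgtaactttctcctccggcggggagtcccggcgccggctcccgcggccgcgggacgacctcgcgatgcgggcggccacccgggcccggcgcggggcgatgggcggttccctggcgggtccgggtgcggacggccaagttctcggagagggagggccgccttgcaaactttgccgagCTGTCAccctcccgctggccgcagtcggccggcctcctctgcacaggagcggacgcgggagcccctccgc
The HOXA9 stretch held TATAAA from 150 to 145 bases before the start, a motif found in 11.53% of the 35116 RefSeq promoters of this length. PBX3 held CTGTCA, the reverse complement of TGACAG, from 20 to 15 bases before the start, and 15.76% of promoters held that motif on either strand. The HOXA7 and MEIS1 stretches matched none of the 4 motifs, of which TGATNNAT was found in 7.398% and TAATTA in 4.838% of promoters. The 4 differed in CG content: PBX3 held 43 CG dinucleotides, HOXA7 held 31, HOXA9 held 22 and MEIS1 held 18, against a median of 14 over all promoters. These matches are letters in a window and show no binding. For 8 of the 9 members the RefSeq table held a promoter; HOXA5 was the exception.

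The members did not move together, so the set is described gene by gene and not as a programme. HOXA9 and HOXA10 were higher in the monocytic lines, MEIS1 was high in U937, PBX3 in THP-1 and MEF2C in THP-1 and BJAB, whereas HOXA7 was higher in Jurkat. HOXA5 and HOXA6 were higher in the untreated lymphocyte lines, a difference that did not pass the test between stimulated libraries. Untreated monocytic lines were compared with untreated lymphocyte lines by limma on log2(TPM + 1) over 14398 genes, with Benjamini-Hochberg adjustment. At an adjusted p under 0.05, 8 of the 8 members tested differed, against 42.4% of all genes tested; 5 were higher (20.1% of all genes) and 3 were lower (22.2%). The median difference of the 8 members was 1.70 log2 units, beside -0.08 over all genes. The 5 higher and the median include HOXA9, which passed the filter through monocytic libraries only, so lower was not a call open to it. Between the stimulated libraries, 6 of the 8 differed, against 46.2% of all genes.

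HOXA9, a homeodomain factor linked to acute myeloid leukaemia, was read at 13.99 and 11.7 TPM in untreated THP-1 and at 9.35 and 6.57 TPM in untreated U937. After LPS the THP-1 libraries held 10.2 and 15.2 TPM and the U937 libraries 6.32 and 7.67 TPM. It was listed at 0 in all 8 Jurkat and BJAB libraries, so the classes did not overlap. With a floor of 3 reads per library, the untreated mean in THP-1 (12.8 ± 1.65 TPM, SD, n = 2) was at least 28.1-fold higher than in Jurkat and at least 26.8-fold higher than in BJAB. For U937 (7.96 ± 1.96 TPM, SD, n = 2) the lower bounds were at least 17.5-fold higher than Jurkat and at least 16.6-fold higher than BJAB. The class difference was 3.46 ± 0.16 log2 units (SE, limma adjusted p = 1.26e-08) untreated and 3.37 ± 0.16 (limma adjusted p = 1.71e-08) stimulated. HOXA9 passed the filter through monocytic libraries only, so lower was not a call open to it. A read-through gene over HOXA10 and HOXA9, which shares sequence with both, was listed at 0 throughout; how reads were assigned between such overlapping genes is not given in the sources used here.

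HOXA10, the next homeodomain gene of the cluster, was read in both monocytic lines and also in BJAB. Untreated U937 held 58.7 and 52.9 TPM, untreated THP-1 held 17.5 and 18.7 TPM, untreated BJAB held 10.2 and 13.2 TPM, and both untreated Jurkat libraries were at 0. Stimulated levels were 18.8 and 47.5 TPM in U937, 5.06 and 8.79 TPM in BJAB, 0 in both Jurkat libraries, and 19.2 and 18.7 TPM in THP-1. All 4 monocytic libraries lay above all 4 lymphocyte libraries in each condition, as they did for HOXA9. Such a separation was found for 11.6% of all genes untreated and 7.11% stimulated. The class difference was 3.21 ± 0.26 log2 units (SE, limma adjusted p = 1.33e-06), but THP-1 and BJAB themselves differed by 0.60 ± 0.37 (limma adjusted p = 0.258), which did not pass the test.

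HOXA7, which lies next to HOXA9, was highest in Jurkat, where HOXA9 was listed at 0. It stood at 10.6 and 11.9 TPM in untreated Jurkat and at 7.43 and 9.07 TPM in stimulated Jurkat. In the 8 monocytic libraries it reached at most 1.33 TPM (lowest 0.15 TPM), with 33 reads in all, and in BJAB it was at 0 in 3 libraries and at 0.27 TPM in the second stimulated library. Jurkat therefore lay above every other library, and BJAB lay below or among the monocytic ones. The class difference of -1.24 ± 0.22 log2 units (SE, limma adjusted p = 6.16e-04) came from Jurkat: THP-1 and U937 differed from Jurkat by -3.18 and -2.91 log2 units, and from BJAB by 0.43 and 0.71, which did not pass the test. With a pseudocount of 0.1 the adjusted p of the class difference was 0.172, and with limma voom on recovered reads it was 0.187.

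HOXA5 and HOXA6, neighbouring homeodomain genes, were read in all 4 lines at low levels. Untreated HOXA6 stood at 8.52 and 10.6 TPM in BJAB, 7.98 and 7.36 TPM in Jurkat, 2.66 and 3.75 TPM in U937, and 2.24 and 2.89 TPM in THP-1. All 4 monocytic libraries were below all 4 lymphocyte libraries, as for 13.1% of all genes, with a difference of -1.31 ± 0.34 log2 units (SE, limma adjusted p = 0.00901). This separation was absent after stimulation, when HOXA6 ran from 0.33 to 3.01 TPM in the monocytic and from 0.32 to 4.11 TPM in the lymphocyte libraries (-0.24 ± 0.34 log2 units, limma adjusted p = 0.599). The untreated difference rests on 29 reads in the 4 monocytic and 87 in the 4 lymphocyte libraries.

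Untreated HOXA5 stood at 9.57 and 10.3 TPM in Jurkat, 5.57 and 10.1 TPM in BJAB, 7.74 and 3.26 TPM in U937, and 4.34 and 1.09 TPM in THP-1. The classes overlapped, since the higher U937 library exceeded the lower BJAB library. The class difference was -1.09 ± 0.38 log2 units (SE, limma adjusted p = 0.0350), and it passed the threshold in 18 of 27 alternative settings; without the second untreated THP-1 library it was -0.76 (limma adjusted p = 0.150). Between stimulated libraries the HOXA5 class difference was -0.32 ± 0.38 log2 units (SE, limma adjusted p = 0.512) and did not pass the test. HOXA3 did not exceed 0.81 TPM in any of the 16 libraries, with 63 reads in all and 3 libraries at 0, and it was not tested.

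**Figure D1:**
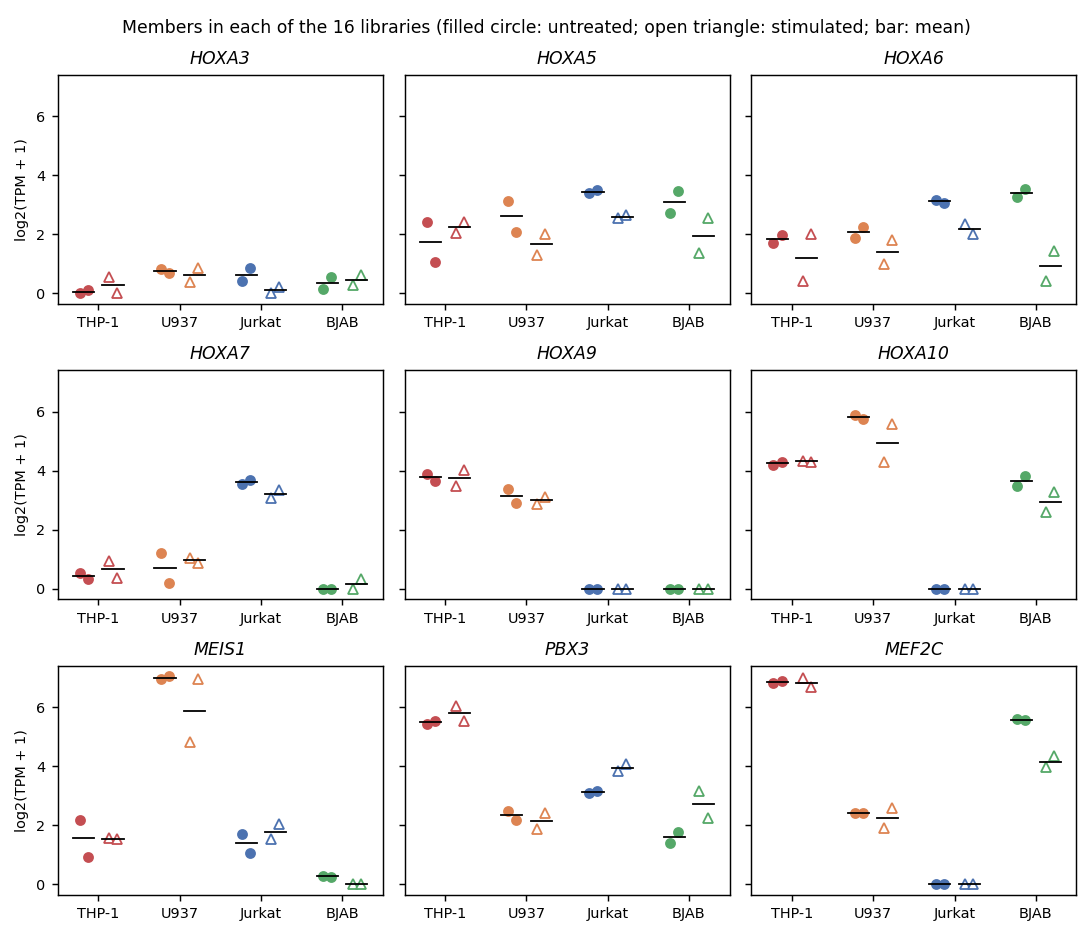
Level of each of the 9 members as log2(TPM + 1) (vertical axis) in the 4 lines (horizontal axis); filled circles are untreated libraries, open triangles stimulated libraries and bars the means of 2 libraries. HOXA9 is at 0 in all 8 Jurkat and BJAB libraries, MEIS1 is highest in U937, PBX3 in THP-1, and MEF2C is at 0 in Jurkat but reaches 48.0 TPM in BJAB.

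At the HOXA9 to HOXA13 end of the cluster, most genes were read in the monocytic lines and were at or near 0 in Jurkat. Other HOXA genes and non-coding genes between them were taken from a list. HOXA11, a limb and uterus patterning factor, ran from 5.00 to 12.1 TPM in the 8 monocytic libraries and was at 0 in 7 of 8 lymphocyte libraries, with 0.23 TPM in the other one. HOXA13, the last gene of the cluster, ran from 7.29 to 18.3 TPM in the monocytic and from 0 to 0.44 TPM in the lymphocyte libraries. Untreated, the class differences were 3.22 ± 0.14 log2 units for HOXA11 and 3.53 ± 0.13 for HOXA13 (SE, limma adjusted p = 9.25e-09 and 2.54e-09). Both passed the filter through monocytic libraries only, so lower was not a call open to them. BJAB had 0 reads of HOXA9, HOXA11 and HOXA13 in all 4 libraries, although HOXA10 between them was read. HOXA2 and HOXA4 reached at most 0.35 and 1.05 TPM, and EVX1, beyond HOXA13, was listed at 0.

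HOXA9, HOXA10, HOXA11 and HOXA13 together held 84.5% to 91.9% of the summed TPM of the 10 protein genes from HOXA2 to HOXA13 in the 8 monocytic libraries. In Jurkat they held 0% to 1.52%. In BJAB, where the value is HOXA10 alone, they held 40.2% and 38.1% untreated and 70.8% and 53.4% stimulated. The summed TPM there was 25.4 and 34.6 untreated and 7.15 and 16.5 stimulated, so the higher share goes with a lower sum. HOXA10 itself stood at 10.2 and 13.2 TPM untreated and 5.06 and 8.79 TPM stimulated. Of 7 listed non-coding genes in the files, 3 were tested: HOXA11-AS was higher in the monocytic lines by 4.37 ± 0.16 log2 units, HOTTIP by 1.46 ± 0.16 and HOXA10-AS by 1.29 ± 0.19 (SE, limma adjusted p = 2.47e-09, 1.39e-05 and 1.71e-04). None of these 3 exceeded 0.36 TPM in a lymphocyte library. They passed the filter through monocytic libraries only, so higher was the only call open to them. Of all genes 20.1% were higher. HOXA10-AS rests on 41 reads in the 8 monocytic libraries, with 2 and 3 reads in untreated U937. SmartSeq2 libraries carry no strand, so reads where an antisense gene overlaps its partner cannot be told apart. The microRNA gene MIR196B, between HOXA9 and HOXA10, was listed at 0 in all libraries, which does not show that the mature microRNA was absent.

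**Figure D2:**
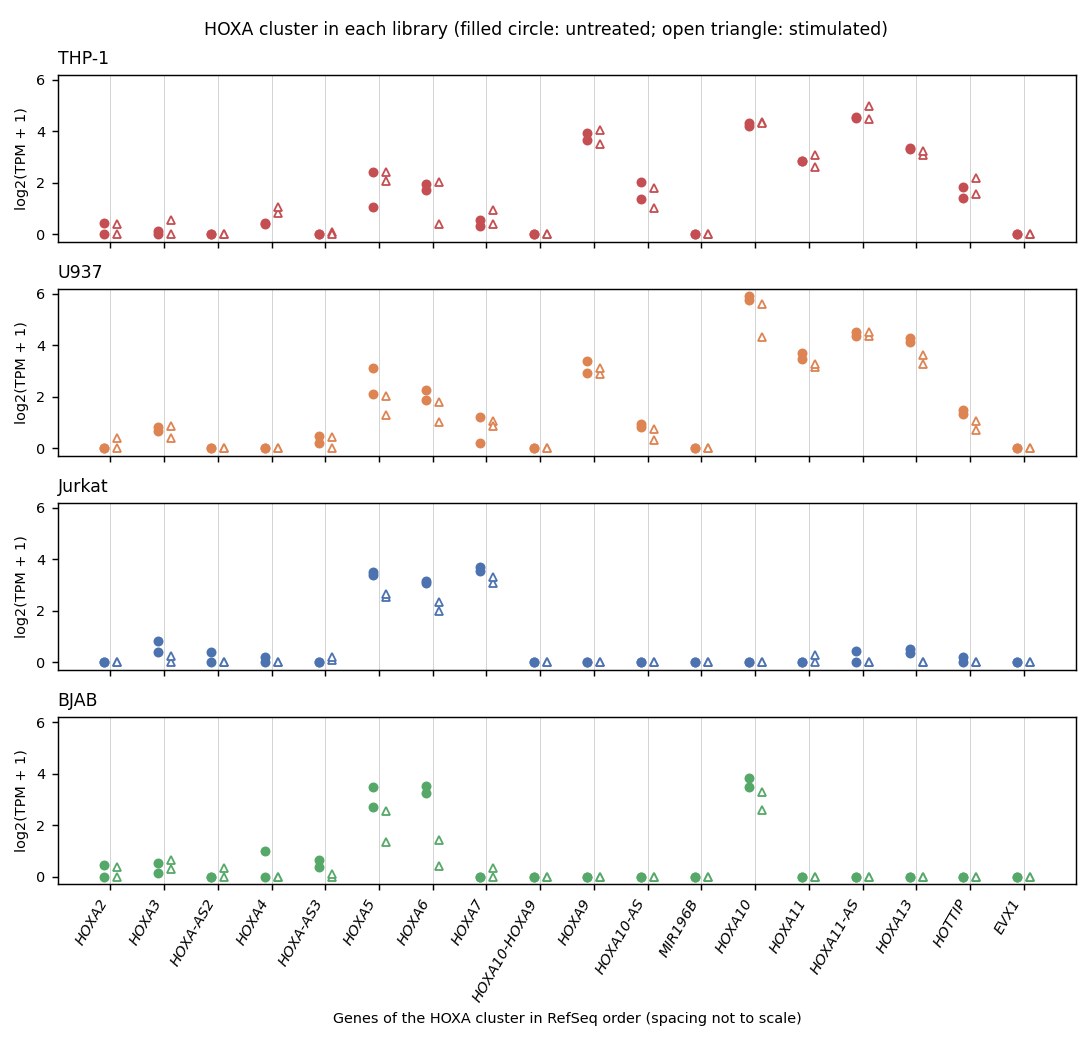
Level of the listed genes of the HOXA cluster as log2(TPM + 1) (vertical axis) in RefSeq order (horizontal axis, not to scale), with 1 panel per line; filled circles are untreated and open triangles stimulated libraries. The HOXA9 to HOTTIP end is read in THP-1 and U937 and is at or near 0 in Jurkat, and in BJAB only HOXA10 of that end is read.

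MEIS1, a homeodomain cofactor of the TALE class that binds with HOXA9, exceeded 4 TPM in U937 only. It stood at 122 and 132 TPM in untreated U937 and at 27.1 and 123 TPM after LPS. THP-1 held 3.58 and 0.89 TPM untreated and 1.97 and 1.90 TPM after LPS. Jurkat held 2.28 and 1.09 TPM untreated and 1.88 and 3.11 TPM stimulated, and BJAB held 0.21 and 0.20 TPM untreated and 0 stimulated. THP-1 overlapped Jurkat, and U937 lay above all other libraries. The untreated U937 mean (127 ± 7.003 TPM, SD, n = 2) was 57.0-fold the THP-1 mean and 75.7-fold the Jurkat mean. The class difference of 3.45 ± 0.41 log2 units (SE, limma adjusted p = 3.30e-05) therefore stood for U937: THP-1 differed from Jurkat by 0.17 ± 0.58 and from BJAB by 1.29 ± 0.58 log2 units (limma adjusted p = 0.876 and 0.115).

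PBX3, another TALE cofactor of HOX proteins, was highest in THP-1. Its levels there were 42.5 and 45.4 TPM untreated and 65.2 and 45.8 TPM after LPS. U937 held 4.65 and 3.58 TPM untreated and 2.70 and 4.36 TPM after LPS, which is below Jurkat in each condition (7.62 and 7.94 TPM untreated, 13.3 and 15.8 TPM stimulated). BJAB held 1.65 and 2.43 TPM untreated and 8.01 and 3.73 TPM stimulated. The untreated THP-1 mean (44.0 ± 2.09 TPM, SD, n = 2) was 10.7-fold the U937 mean, 5.65-fold the Jurkat mean and 21.5-fold the BJAB mean. The class difference was 1.55 ± 0.24 log2 units (SE, limma adjusted p = 2.26e-04), while U937 alone differed from Jurkat by -0.79 ± 0.33 and from BJAB by 0.75 ± 0.33 (limma adjusted p = 0.0975 and 0.111). Between stimulated libraries the difference was 0.65 ± 0.24 (limma adjusted p = 0.0430) and passed the threshold in 10 of 27 alternative settings.

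MEF2C divided both classes. It stood at 113 and 116 TPM in untreated THP-1 and at 4.36 and 4.33 TPM in untreated U937. BJAB held 48.0 and 46.0 TPM, and both untreated Jurkat libraries were at 0, as were both stimulated ones. THP-1 was above BJAB, BJAB above U937 and U937 above Jurkat in every untreated library. Against a floor of 3 reads per library the THP-1 mean was at least 839-fold higher than Jurkat and the BJAB mean at least 344-fold higher. The class difference of 1.84 ± 0.18 log2 units (SE, limma adjusted p = 6.64e-06) covers opposite signs: U937 was lower than BJAB, with a difference of -3.17 ± 0.26 log2 units (limma adjusted p = 1.63e-06).

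Taken line against line, each untreated monocytic line was compared with each untreated lymphocyte line, which gives 4 pairs that share libraries. HOXA9 was the only member higher in all 4 pairs, as were 4.58% of all genes tested. HOXA10 and MEF2C were higher in 3 pairs, MEF2C being lower in the other one, and MEIS1 and PBX3 were higher in 2 pairs. HOXA7 was lower in 2 pairs, and HOXA5 and HOXA6 were lower in 1 pair each. For counts below 4 pairs the share of all genes was not computed, so these counts only describe the members. THP-1 and Jurkat differed in 6 of 8 members (35.1% of all genes), THP-1 and BJAB in 4 (35.5%), U937 and Jurkat in 5 (32.6%) and U937 and BJAB in 4 (33.9%).

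Lines of the same class also differed. THP-1 and U937 differed in 4 of 8 members, against 25.9% of all genes: MEIS1 by -5.45 ± 0.58 and HOXA10 by -1.57 ± 0.37 log2 units, lower in THP-1, and MEF2C by 4.44 ± 0.26 and PBX3 by 3.14 ± 0.33, higher in THP-1 (SE, limma adjusted p = 2.75e-05, 0.00850, 1.68e-07 and 2.56e-05). HOXA9 differed between these lines by 0.64 ± 0.23 log2 units (limma adjusted p = 0.0635). Jurkat and BJAB differed in 4 of 8, against 31.8% of all genes: HOXA7 by 3.61 ± 0.30 and PBX3 by 1.54 ± 0.33, higher in Jurkat, and MEF2C by -5.58 ± 0.26 and HOXA10 by -3.66 ± 0.37, lower in Jurkat. Over the 16 libraries, which repeat 4 lines, the Pearson r of log2(TPM + 1) was 0.74 between HOXA9 and HOXA10, 0.54 between HOXA9 and MEIS1, 0.48 between HOXA9 and PBX3, and -0.25 between MEIS1 and PBX3. These values are a description.

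**Figure D3:**
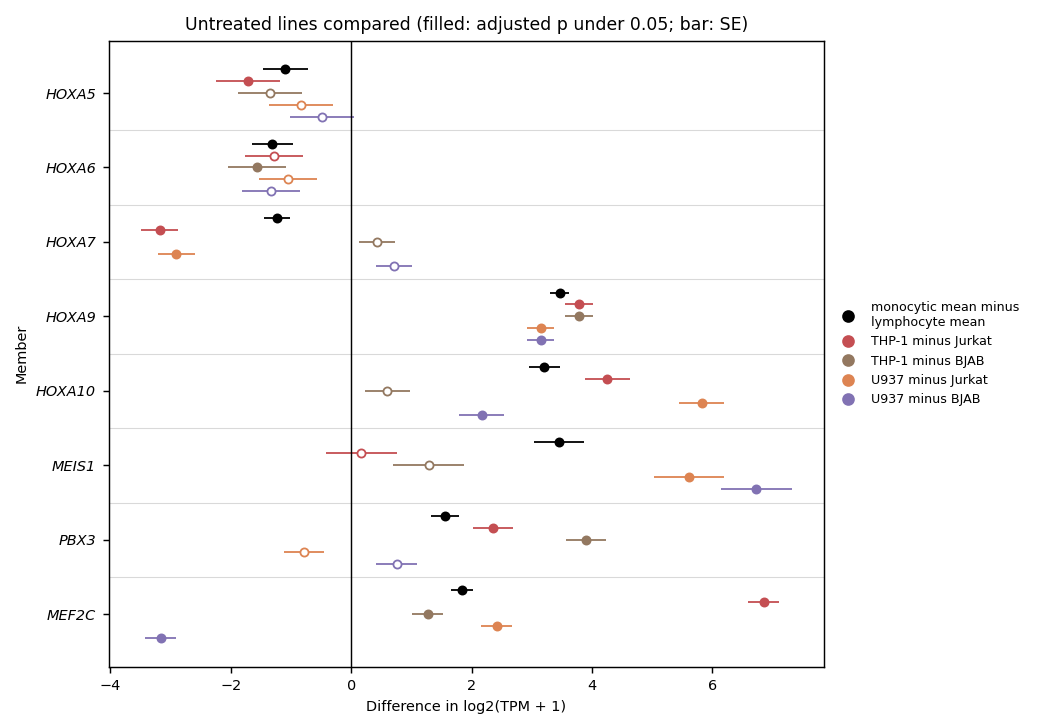
Difference in log2(TPM + 1) (horizontal axis) with its SE for the 8 members tested (vertical axis), for the class means and for each of the 4 pairs of untreated lines; filled points have an adjusted p under 0.05. HOXA9 is to the right of 0 in every comparison shown, and MEF2C is on both sides, from -3.17 for U937 minus BJAB to 6.85 for THP-1 minus Jurkat.

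After 4 h of stimulation 2 members passed the test, both in BJAB. HOXA6 fell from 8.52 and 10.6 TPM to 0.32 and 1.68 TPM, a change of -2.48 ± 0.48 log2 units (SE, limma adjusted p = 0.0118). This rests on 20 and 27 reads untreated and 1 and 5 reads stimulated. In the stimulated libraries 3 reads of HOXA6 stand for 0.96 and 1.01 TPM. MEF2C, known in B cells as a factor downstream of antigen receptor signalling, fell from 48.0 and 46.0 TPM to 14.7 and 19.2 TPM, a change of -1.43 ± 0.26 log2 units (SE, limma adjusted p = 0.00792). Both genes' stimulated libraries lay below their untreated ones, as for 32.9% of all genes. Of all genes tested, 6.4% changed and 4.76% fell, and the median over all genes was -0.14 log2 units. After median-of-ratios scaling, which brought that median to 0, MEF2C stood at -1.11 (limma adjusted p = 0.00327) and HOXA6 at -2.34 (limma adjusted p = 0.00942).

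The calls in BJAB rest on few libraries. Without the first stimulated BJAB library, MEF2C changed by -1.25 (limma adjusted p = 0.04999, just under the threshold) and HOXA6 by -1.97 (limma adjusted p = 0.111), a p-value for 1 stimulated library that borrows its spread from the other groups. Without the first untreated BJAB library the adjusted p values were 0.0589 for MEF2C and 0.0580 for HOXA6, and without the second they were 0.0565 and 0.101. Genes were put into 5 equal bins by the GC content of their longest GENCODE transcript, which was known for 96.2% of the genes tested. In that first stimulated library the bin of highest GC, which includes HOXA6, had a median difference from untreated of -1.06 log2 units, against 0.03 in the bin of lowest GC, which includes MEF2C. The part of GC content in the HOXA6 result was not tested. The summed level of the 18 B cell markers was 8987 and 9505 TPM in untreated BJAB and 4070 to 6774 TPM in stimulated BJAB, and 7 of them fell and 1 rose; its part in the MEF2C result was not tested.

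The difference between the Jurkat and BJAB responses was 1.43 ± 0.37 log2 units for MEF2C (limma adjusted p = 0.0467), 1 of the 8 members to pass, against 5.24% of all genes; MEF2C was at 0 in Jurkat, so this is the BJAB change with its sign turned. It passed the threshold in 9 of 27 alternative settings.

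PBX3 was at a higher mean in both stimulated lymphocyte lines without passing the test. In BJAB it changed by 1.11 ± 0.33 log2 units (SE, limma adjusted p = 0.0731), and after median-of-ratios scaling by 1.39 (limma adjusted p = 0.0360). Without the first stimulated BJAB library it changed by 0.65 (limma adjusted p = 0.486), and it passed the threshold in 5 of 27 alternative settings. In Jurkat it changed by 0.82 ± 0.33 (limma adjusted p = 0.292), with both stimulated libraries above both untreated ones, as for 21% of all genes. Without both libraries that stood apart, which changes only the estimate of spread for Jurkat, the test gave an adjusted p of 0.0319. The Jurkat members HOXA5, HOXA6 and HOXA7 were lower in each stimulated library than in each untreated one, as were 28.7% of all genes, with changes of -0.85, -0.94 and -0.41 log2 units, and none passed the test. In Jurkat 0 of 8 members passed, against 4.87% of all genes; limma voom on recovered reads also gave 0, and 1 member (PBX3) had an unadjusted p under 0.05.

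None of the 8 members passed after LPS in THP-1 (0.167% of all genes) or U937 (0.0278%) by limma or limma voom on recovered reads. At an unadjusted p under 0.05 the counts were 0 in THP-1 and 1 (HOXA10) in U937. In THP-1 the changes ran from -0.62 for HOXA6 to 0.50 for HOXA5, and HOXA9 changed by -0.03 ± 0.23 and MEF2C by -0.03 ± 0.26 log2 units (SE). In U937 the first LPS library held less than the second of every tested member except HOXA7 (1.07 against 0.84 TPM). The 2 most abundant there were MEIS1, at 27.1 TPM against 123 TPM, and HOXA10, at 18.8 TPM against 47.5 TPM. The changes were -1.12 ± 0.58 for MEIS1 and -0.87 ± 0.37 for HOXA10 (limma adjusted p = 0.342 and 0.329). With the first LPS library alone they were -2.19 and -1.52 (limma adjusted p = 0.00564 and 0.00357). Those p-values assume that a single library varies like the other groups. In that library, of 5 equal bins by the relative length recovered from the TPM steps, the bin that includes MEIS1 and HOXA10 had a median difference from untreated of -0.74 log2 units, against 0.11 in the bin of shortest genes. In the second LPS library the median of the former bin was 0. The part of length in these results was not tested. The median over all genes in U937 was -0.25, and 0 after median-of-ratios scaling, under which HOXA9, PBX3 and MEF2C turned from -0.15, -0.19 and -0.16 to 0.28, 0.19 and 0.23. Under the same scaling MEIS1 stood at -0.64 and HOXA10 at -0.40 (limma adjusted p = 0.476 and 0.390).

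**Figure D4:**
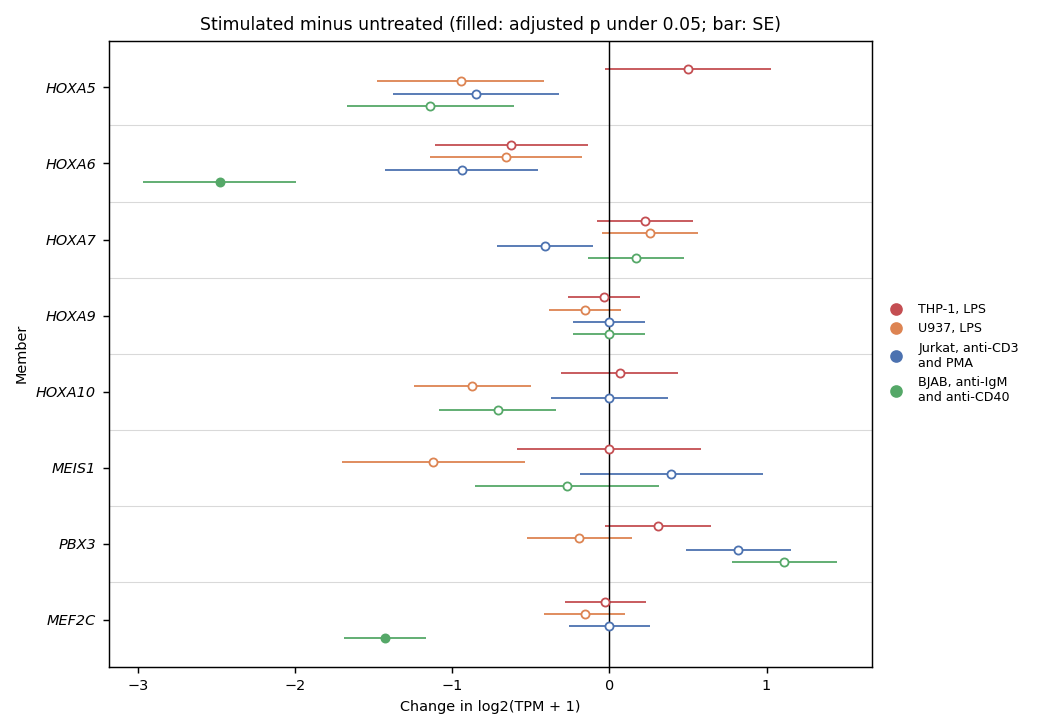
Change in log2(TPM + 1) after stimulation (horizontal axis) with its SE for the 8 members tested (vertical axis) in each line; filled points have an adjusted p under 0.05. The filled points are HOXA6 at -2.48 and MEF2C at -1.43, both in BJAB.

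Other genes of the same families were read from lists of named genes. Of 28 HOXB, HOXC and HOXD genes, 11 were tested; untreated, 1 was higher and 7 were lower in the monocytic lines, against 20.1% and 22.2% of all genes, with a list median of -0.63 beside -0.08 over all genes. The mean of 2 untreated libraries for HOXB7 was 46.9 TPM in BJAB, 31.9 TPM in Jurkat, 9.97 TPM in THP-1 and 0 in U937, a class difference of -3.58 ± 0.15 log2 units (limma adjusted p = 6.72e-09). HOXB6 was the gene higher in the monocytic lines, by 0.58 ± 0.18 (limma adjusted p = 0.0243), and THP-1 held 12.5 TPM of it, BJAB 5.13 TPM and the other lines 0. HOXC5 was highest in BJAB at 11.5 TPM and fell there on stimulation to 2.48 TPM, a change of -1.85 ± 0.22 log2 units (limma adjusted p = 4.62e-04), and HOXC4 fell likewise, with -2.04 ± 0.31 (limma adjusted p = 0.00288). In BJAB 4 of the 11 fell on stimulation, against 4.76% of all genes. In the other lines 0 of the 11 passed the test, against 0.167% of all genes in THP-1, 0.0278% in U937 and 4.87% in Jurkat.

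Of 9 further TALE homeobox genes 6 were tested, with 2 higher and 2 lower in untreated monocytic lines (20.1% and 22.2% of all genes, list median 0.13). MEIS2, a relative of MEIS1, was higher by 0.56 ± 0.20 log2 units, and TGIF1, a repressor of the same class, was lower with a difference of -0.72 ± 0.18 (limma adjusted p = 0.0416 and 0.00752). Of 7 MEF2 genes and class IIa deacetylases tested, 2 were higher and 3 lower, against the same shares (list median -0.50). MEF2D was higher by 1.26 ± 0.30 and HDAC7, a deacetylase that binds MEF2 factors, was lower with a difference of -1.96 ± 0.27 (limma adjusted p = 0.00499 and 9.33e-05). HDAC7 also fell in stimulated BJAB from 30.1 to 4.81 TPM, a change of -2.49 ± 0.38 log2 units (limma adjusted p = 0.00253).

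Regulators of the HOXA cluster were read in the same way. Of 27 genes of the KMT2A, menin and DOT1L complexes, 1 was higher and 6 were lower in untreated monocytic lines (list median -0.14 beside -0.08). Of all genes 20.1% were higher and 22.2% lower, so the share lower in this group equals that of all genes. AFF1, an elongation factor subunit, was higher by 1.39 ± 0.22 log2 units, and the KMT2A partners PSIP1 and MEN1 were lower, with differences of -1.01 ± 0.16 and -1.11 ± 0.35 (limma adjusted p = 2.55e-04, 3.14e-04 and 0.0253). Of 22 Polycomb genes, which encode repressors of HOX loci, 2 were higher and 3 lower, against the same shares (list median -0.17), among them EZH2 at -0.85 ± 0.17 and JARID2 at 0.94 ± 0.22 (limma adjusted p = 0.00137 and 0.00417). Of 6 upstream activators tested, 2 were higher and 1 lower, with RXRA, a retinoid receptor, at 1.92 ± 0.17 and CTCF, a boundary factor of the cluster, at -0.97 ± 0.22 (limma adjusted p = 3.12e-06 and 0.00373).

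Of 36 tested genes described as targets of HOXA9, MEIS1 or KMT2A fusions, 20 were higher and 6 lower in untreated monocytic lines, against 20.1% and 22.2% of all genes, with a list median of 0.69 beside -0.08 over all genes. Of the 20 monocytic markers, 19 were higher in the same comparison; their part in the target list's difference was not tested. Untreated THP-1 held 27.9 TPM of LAMP5 and 49.9 TPM of ZEB2, and untreated U937 held 211 and 42.9 TPM; both were at 0 in untreated Jurkat and BJAB. CCNA1, a cyclin, was higher by 5.39 ± 0.20 log2 units and LMO2, a haematopoietic adaptor, by 3.62 ± 0.23 (limma adjusted p = 2.39e-09 and 1.40e-07). The list also differed within the lymphocyte class: 16 were higher and 6 lower in untreated Jurkat than in BJAB (list median 0.70 beside 0.15). Of all genes 31.8% differed there, in either direction. U937 against Jurkat gave 10 higher and 11 lower (32.6% of all genes in either direction). The counts were 18 and 5 for U937 against BJAB (33.9%), 18 and 9 for THP-1 against Jurkat (35.1%), and 19 and 3 for THP-1 against BJAB (35.5%).

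The genes most like a member over the 16 libraries were ranked by Pearson r of log2(TPM + 1) among 11373 genes, as a description. For HOXA9 they were AZU1, TSPO and PHACTR3 (r = 0.997, 0.996 and 0.995). For MEIS1 they were EIF4E3, ZMIZ1-AS1 and CCND2 (r = 0.991, 0.979 and 0.977). For PBX3 they were FSCN1, GATA2 and TCEAL4 (r = 0.960, 0.956 and 0.952), and for MEF2C SAMHD1, ACPP and PLD4 (r = 0.986, 0.980 and 0.979). None of the 12 was a member.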

How the data were processed

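RNA-seq (SmartSeq2, per the labels' protocols) was made from 4 cell lines in 8 groups of 2 libraries. The authors deposited TPM values per gene, from uniquely aligned reads per the file names; TopHat2 and the hg19 build are named in the submitters' processing notes, while the counter, the annotation and all versions were not given in the sources used here. Each library's TPM summed to 1000000. Whole reads were recovered from the TPM steps (tolerance 0.0001 reads) for 17860 of 19092 genes above 0; the other 1232 were above 0 in 1 library only. Depth was 3317689 to 8432224 recovered reads, and a value of 0 allows up to 3 reads; bounds cover counting error only.

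Genes with at least 1 TPM in at least 2 libraries were tested as log2(TPM + 1) with limma 3.58.1 (trend of spread with level, 8 residual degrees of freedom, R 4.3.3), with all 8 groups in 1 fit and no block. Fold changes on this scale understate changes of low genes. P-values were Benjamini-Hochberg adjusted over 14398 genes, with a threshold of 0.05. The scripts were tested on simulated data. Alternatives were 27 settings of pseudocount, filter, scaling, trend, block, libraries and limma voom on recovered reads. Named genes were the 9 members, the HOXA cluster and, from each other list, up to 4 genes with the largest class difference at a mean of at least 5 TPM and up to 2 per stimulation, plus 3 most like each of HOXA9, MEIS1, PBX3 and MEF2C; not every gene the rule allows is reported here. The members and lists were chosen with earlier results of these data known. Sequences were matched by symbol to RefSeq (GRCh38.p14); no coordinates were taken from hg19.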

Additional observations from a re-analysis of the deposited data

Results flagged for a closer look

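MEF2C responded differently to stimulation in Jurkat and BJAB by the test of the difference itself: Jurkat minus BJAB was 1.43 log2 units (limma adjusted p = 0.0467), against 5.24% of all genes tested. MEF2C was at 0 in all 4 Jurkat libraries, so the value is the change in BJAB with its sign turned. It passed the threshold in 9 of 27 alternative settings.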

How the results depend on the processing

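Of the members' differences in all comparisons and settings, 2888 stayed on their side of the threshold, among them 73 that passed in neither setting and changed sign, 68 moved past the threshold, 68 fell short of it, and 0 called values changed sign. With a pseudocount of 0.1, untreated monocytic and lymphocyte lines differed in 5 members, all higher, instead of 8. With the U937 and BJAB libraries that stood apart (the first stimulated one of each) omitted, THP-1 and BJAB differed in 7 members instead of 4, and stimulated Jurkat in 1 instead of 0. With only the BJAB libraries fitted, 0 members passed the test on stimulation instead of 2. The last 2 settings also hold fewer libraries. The causes of these shifts were not tested. Leaving out 1 library at a time, the counts ranged from 7 to 8 for untreated and 5 to 6 for stimulated monocytic against lymphocyte lines. They ranged from 3 to 5 for THP-1 against U937, 4 to 5 for Jurkat against BJAB, 5 to 7 for THP-1 against Jurkat, 3 to 5 for THP-1 against BJAB, 5 to 6 for U937 against Jurkat and 4 to 6 for U937 against BJAB. For stimulation they were 0 in THP-1 and in Jurkat throughout, 0 to 2 in U937 and 0 to 3 in BJAB.

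The labels do not say that replicate numbers pair libraries, and the numbers were taken as names: deviations of same-numbered libraries correlated across genes at 0.01 in THP-1, -0.04 in U937, 0.02 in Jurkat and 0.14 in BJAB, and at -0.19 to 0.42 between groups of different lines, the highest being stimulated U937 with stimulated BJAB. With the replicate number as a block, 8 members differed untreated and 5 stimulated between the classes, 4 between THP-1 and U937, 4 between Jurkat and BJAB, 7 between THP-1 and Jurkat, 4 between THP-1 and BJAB, 5 between U937 and Jurkat and 5 between U937 and BJAB. Under this block 0 members passed the test on stimulation in THP-1, U937 and Jurkat and 2 in BJAB.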
